A study of Homo sapiens with 4 samples.

Results

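The partners of the acute promyelocytic leukemia (APL) fusion, PML and RARA, were followed together with the receptors RARB, RARG, RXRA and RXRB and the retinoic acid responders DHRS3, CYP26A1, TGM2 and ASB2 in NB4 cells that overexpressed JMJD3. The genes were chosen by symbol, and the 10 symbols matched 10 of the 60662 genes of the table. NB4 is an established human line of promyelocytes that carries PML-RARα. RNA was sequenced from 2 libraries of NB4 cells that received a control vector and 2 libraries of NB4 cells that received a JMJD3 vector, to ask which genes respond to this demethylase of H3K27. Per the study's methods, the lentiviral vectors for leukemic lines carried a GFP reporter and GFP+ cells were sorted, and no retinoic acid is named for any of the libraries. All libraries come from 1 cell line, and the sources used here do not say whether the 2 libraries of a group were separate transductions, so that p-values measure only the spread between libraries, which may be technical.

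Retinoic acid receptors (RARα, RARβ and RARγ) bind DNA as heterodimers with retinoid X receptors (RXRs), recruit corepressors while they are without ligand and exchange them for coactivators when all-trans retinoic acid is bound. In APL a translocation joins PML, which builds the nuclear bodies that carry its name, to RARα, and the fusion represses genes that RARα would activate until pharmacological retinoic acid releases the block and leads to its degradation. Among the classical targets of the receptors are RARB itself, enzymes of retinoid metabolism such as CYP26A1 and DHRS3, and TGM2 and ASB2, which rise when APL cells differentiate. Counts per gene do not separate the fusion from the normal alleles, so that each value of PML and RARA sums reads of the normal transcripts and of both possible fusions.

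Promoter windows were read from RefSeq on GRCh38.p14, each from 250 bases before to 50 bases after an annotated start. Of the 10 genes 8 matched, with 19 windows, and PML and TGM2 are not in the table used. The windows were searched on both strands for direct repeats of a receptor half-site, taken as AGGTCA or AGTTCA or GGGTCA or GGTTCA, with 1, 2 or 5 bases between the repeats (DR1, DR2 and DR5). A DR5 lay in 1 window of RARB and 1 window of CYP26A1, a DR1 or DR2 in 0 of the 19. Among all 35116 promoter windows of the same length 0.0883% held a DR5, 0.131% a DR1 and 0.0399% a DR2. These 2 windows are shown because both genes are responders whose low level in NB4 cells is described further on. The RARB window lies at chr3:25428013-25428312 on the plus strand, inside the bounds of the gene, and its DR5 ends 36 bases before the start. The CYP26A1 window lies at chr10:93073643-93073942 on the plus strand, and its DR5, read on the opposite strand, ends 73 bases before the start. Capitals mark the half-sites, and a match describes the letters only.
RARB: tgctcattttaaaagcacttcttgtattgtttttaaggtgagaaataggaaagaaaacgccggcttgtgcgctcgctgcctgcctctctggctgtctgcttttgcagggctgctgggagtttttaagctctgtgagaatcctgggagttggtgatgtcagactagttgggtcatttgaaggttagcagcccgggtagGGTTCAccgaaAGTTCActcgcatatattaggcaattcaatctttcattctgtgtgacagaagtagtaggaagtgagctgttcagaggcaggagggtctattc
CYP26A1: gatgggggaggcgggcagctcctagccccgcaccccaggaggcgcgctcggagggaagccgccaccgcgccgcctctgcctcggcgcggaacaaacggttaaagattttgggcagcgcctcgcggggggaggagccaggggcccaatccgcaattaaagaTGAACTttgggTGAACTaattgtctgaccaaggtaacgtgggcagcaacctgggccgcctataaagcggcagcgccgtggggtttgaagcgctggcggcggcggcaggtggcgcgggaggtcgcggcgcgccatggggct

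The libraries held 34190335 and 38947093 reads in vector replicates 1 and 2 and 35431655 and 41876228 reads in JMJD3 replicates 1 and 2. A gene with 0 reads could still have up to 3, or 0.0877, 0.0770, 0.0847 and 0.0716 CPM (reads scaled to a common library size, here by the read totals without TMM) in the same order, a limit that covers counting error only. KDM6B, the gene for JMJD3, had 511 and 501 reads in the vector libraries and 1412 and 1973 reads in the JMJD3 libraries, or 2.88, 2.44, 6.76 and 7.99 FPKM, the deposited value scaled to transcript length and depth. Both JMJD3 libraries lay above both vector libraries, and the log2 fold change was 1.48 with a standard error of 0.13 (edgeR quasi-likelihood test, Benjamini-Hochberg adjusted p = 0.00116). Reads of the vector's JMJD3 and of the cell's own gene are summed in these values. In such bulk samples fewer cells that express a gene and less RNA per cell cannot be told apart. At an adjusted p under 0.05, 6219 of 15243 tested genes passed, which is 40.8% of them, 21.7% higher and 19.1% lower in JMJD3 cells, so that a call in this comparison was common. The count was 2973 without JMJD3 replicate 1 (1797 higher and 1176 lower), 2444 without JMJD3 replicate 2 (1556 and 888), 9069 without vector replicate 1 (4605 and 4464) and 7479 without vector replicate 2 (3787 and 3692), where the lone library left in a group was assumed to vary like those of the other group. The FPKM of all genes summed to 1344850 and 1445370 in vector and to 1004720 and 1018090 in JMJD3 libraries. The groups were tested on reads, and FPKM served for levels between genes.

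Most markers of promyelocytes were abundant in every library. Of 9 promyelocyte and myeloid markers 8 had more than 3 reads in every library. The exception was ELANE, with 11 and 7 reads in vector and 1 and 2 reads in JMJD3 libraries. The summed level of the 9 markers was 8722, 9787, 4983 and 4907 FPKM. MPO was the most abundant of them, at 4889 and 5055 FPKM in vector cells and 3278 and 3324 FPKM in JMJD3 cells. Of the 8 that were tested, 5 fell and 2 rose. The granule proteases CTSG and PRTN3 had log2 fold changes of -3.91 and -1.81, and the 2 that rose were CEBPE at 0.73 and CD33 at 0.29. The T cell markers summed to 3.04, 4.29, 8.47 and 9.37 FPKM, most of it CD2, and CD3E and CD3G had at most 4 reads in a library. The B cell markers, led by CD79A, summed to 11.3, 14.0, 19.7 and 18.4 FPKM with MS4A1 at 0 reads in all 4 libraries. The markers of epithelial and HEK-293T packaging cells, summed to 5.83, 6.73, 3.001 and 2.59 FPKM with KRT19 at 0 in all, and the most abundant was EPCAM in vector and KRT8 in JMJD3 libraries. The fibroblast markers stayed under 0.1 FPKM in sum, with COL1A2 and COL3A1 at 0 in all. Of the erythroid markers HBA1 and HBB were at 0 and KLF1 had at most 4 reads. The part of these markers' differences in the results that follow was not tested.

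PML (ENSG00000140464), the scaffold of the nuclear bodies, was among the most abundant of the 10 genes. Its level was 44.4 and 48.9 FPKM in vector cells and 31.9 and 34.2 FPKM in JMJD3 cells, from between 3608 and 4745 reads in a library. Both JMJD3 libraries lay below both vector libraries, and the replicates of each group were closer to each other than to the other group. In CPM on TMM-scaled library sizes, the group means were 126 ± 5.09 for vector and 97.8 ± 1.54 for JMJD3 (SD, n = 2 each). The log2 fold change was -0.37 (standard error 0.08, adjusted p = 0.0130 by edgeR), so that JMJD3 cells held 77.4% of the vector level. The call was lost without either JMJD3 library, at an adjusted p of 0.188 without replicate 1 and 0.165 without replicate 2 by edgeR. PML lies at chr15:73994716-74047827 of GRCh38.p14, and RefSeq lists no other gene within these bounds.

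RARA (ENSG00000131759) encodes RARα, the main retinoic acid receptor of myeloid cells and the other partner of the fusion. It was at 26.4 and 29.7 FPKM in vector cells and at 20.9 and 22.1 FPKM in JMJD3 cells. The groups did not overlap, and the lowest vector library was above the highest JMJD3 library. The log2 fold change was -0.41 (standard error 0.10, adjusted p = 0.0211 by edgeR), or 75.1% of the vector level, from 60.5 ± 5.26 CPM to 45.4 ± 2.27 CPM (SD, n = 2 each). On FPKM values tested with limma, RARA had log2 fold changes of -0.36 and -0.38 with 1 and 0.1 added, and missed the threshold with both (adjusted p = 0.0539 and 0.0518, within a range of 0.000136 to 0.244 over all its alternatives). It also missed it without JMJD3 replicate 1 or 2 (adjusted p = 0.244 and 0.151 by edgeR). The gene lies at chr17:40309180-40357643, where RARA-AS1 and 1 further non-coding gene overlap it. The library kit does not keep the strand, so that reads from an overlapping transcript on the other strand cannot be told apart from those of RARA. RARA-AS1 was given 1, 1, 0 and 0 reads, beside 1634 to 2344 reads of RARA in a library, and the other gene was not matched in the table by its symbol. PML and RARA thus both fell, and the ratio of PML to RARA in FPKM was 1.68 and 1.65 in vector cells and 1.52 and 1.55 in JMJD3 cells. In FPKM the ratio was lower in both JMJD3 libraries. This did not hold on reads, where the log2 fold changes were -0.37 for PML and -0.41 for RARA. Whether the 2 genes changed by different amounts was not tested.

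RARB and RARG, the other retinoic acid receptors, were close to the detection limit. RARB (ENSG00000077092, chr3:24829321-25597932), itself a classical target with the DR5 shown above, had 5 and 8 reads in vector cells and 4 and 5 in JMJD3 cells, at 0.0658, 0.0962, 0.0455 and 0.0476 FPKM. RARG (ENSG00000172819, chr12:53210569-53232209) had 7 and 4 reads in vector cells and 8 and 7 in JMJD3 cells, at 0.233, 0.0826, 0.177 and 0.0906 FPKM. In FPKM both JMJD3 libraries were below both vector libraries for RARB, while the groups overlapped for RARG. Neither gene passed the filter on low reads, so neither was tested. RARB shares 28 bases with TOP2B, which had from 9314 to 11904 reads in a library, and whether reads of TOP2B were counted for RARB was not tested. Summed over each group, RARB had 13 reads in vector and 9 in JMJD3 cells, a ratio scaled to the read totals of 0.655 with an exact 95% counting interval of 0.247 to 1.66. For RARG the sums were 11 and 15 reads, and the ratio was 1.29 with an interval of 0.554 to 3.11. The log2 ratio of the group means of RARG was -0.24 in FPKM and 0.19 in CPM, with opposite signs. CPM rests on TMM-scaled sizes, while the ratios of summed reads use the read totals without TMM. Both intervals include equal levels, and a difference was not detectable at this depth. RARA accounted for 98.9%, 99.4%, 98.9% and 99.4% of the summed RAR level in the 4 libraries.

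RXRA (ENSG00000186350), which encodes the partner RXRα of RARs and of many other nuclear receptors, moved the other way. It was at 45.7 and 44.2 FPKM in vector cells and at 56.0 and 59.6 FPKM in JMJD3 cells, from 5236 to 9548 reads. Both JMJD3 libraries were above both vector libraries, by more than the replicates differed. The log2 fold change was 0.35 (standard error 0.08, adjusted p = 0.0129 by edgeR), or 127% of the vector level, from 164 ± 4.17 CPM to 209 ± 6.16 CPM (SD, n = 2 each). The call was lost without JMJD3 replicate 1 (adjusted p = 0.126 by edgeR) and without JMJD3 replicate 2 (adjusted p = 0.219 by edgeR). The gene lies at chr9:134326455-134440585.

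RXRB (ENSG00000204231, chr6:33193588-33200853), the gene of the widely expressed partner RXRβ, was at 16.4 and 20.5 FPKM in vector cells and at 15.1 and 15.5 FPKM in JMJD3 cells. The JMJD3 libraries were nearly equal and lay just under the lower vector library. The log2 fold change of -0.21 (standard error 0.12) was not past the limit set on the adjusted p, which was 0.184 by edgeR, and vector replicate 2 carried most of it. Without vector replicate 2 the log2 fold change was -0.08, and without vector replicate 1 it was -0.38. RXRG, the remaining RXR gene, had 0 reads in all 4 libraries.

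The ratio of RXR to RAR levels was higher in both JMJD3 libraries than in both vector libraries, a difference that was not tested. RXRA stood at 1.73 and 1.49 times the FPKM of RARA in vector cells and at 2.67 and 2.69 times in JMJD3 cells. The sum of the RXR genes over that of the RAR genes was 2.33 and 2.16 in vector cells and 3.36 and 3.37 in JMJD3 cells. In both ratios the JMJD3 libraries agreed within a few percent of each other and lay apart from the vector libraries, since RXRA was higher and RARA lower in the same libraries. RXRA made up 73.6% and 68.3% of the summed RXR level in vector cells and 78.8% and 79.4% in JMJD3 cells.

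**Figure D1:**
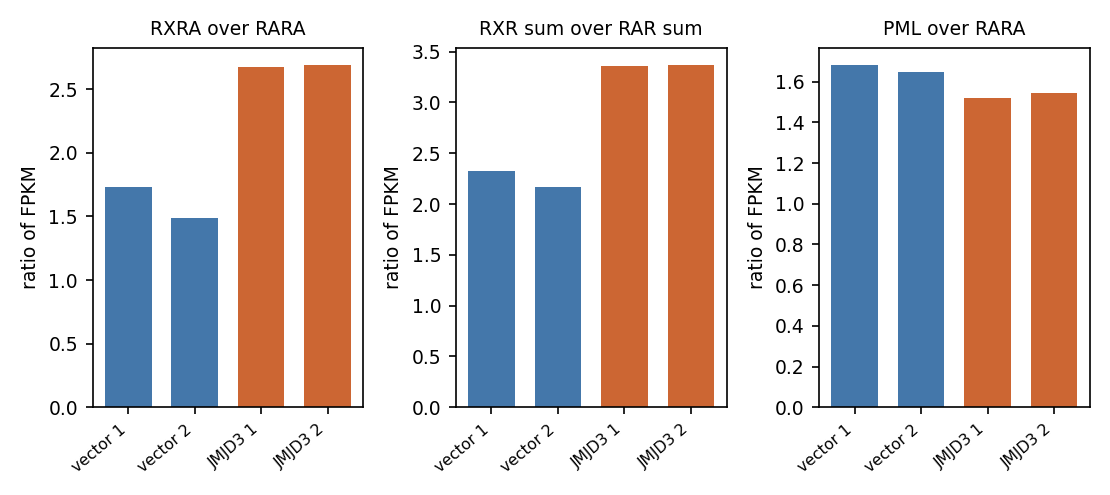
Ratios of FPKM values in each of the 4 libraries (bars, axes from 0; blue vector, orange JMJD3): RXRA over RARA, the RXR sum over the RAR sum, and PML over RARA. The first ratio is 1.73 and 1.49 in vector and 2.67 and 2.69 in JMJD3 libraries, while PML over RARA runs from 1.52 to 1.68.

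Among the responders, DHRS3 (ENSG00000162496, chr1:12567910-12618210) is a reductase that returns retinaldehyde to retinol and is known to be induced by retinoic acid. It had 86 and 115 reads in vector cells and 73 and 85 in JMJD3 cells, at 1.88 and 2.39 FPKM against 1.36 and 1.31 FPKM. On the FPKM scale both JMJD3 libraries lay below both vector libraries. Its log2 fold change was -0.59 (standard error 0.18, adjusted p = 0.0385 by edgeR), or 66.4% of the vector level, from 2.90 ± 0.354 CPM to 1.93 ± 0.0387 CPM (SD, n = 2 each). This call lay near the threshold and was lost with upper quartile scaling (adjusted p = 0.0510 by edgeR) and with the DESeq2 Wald test (adjusted p = 0.165). It was also lost with limma on log2(FPKM + 1) and log2(FPKM + 0.1) (adjusted p = 0.0613 and 0.0783). The replicate block lost it (adjusted p = 0.0528 by edgeR), while the block with replicate numbers crossed kept it (adjusted p = 0.0259 by edgeR). No label pairs the replicates of the groups. Without vector replicate 2, JMJD3 replicate 1 or JMJD3 replicate 2 the call was lost as well, at log2 fold changes of -0.46, -0.61 and -0.57. The adjusted p ran from 0.00933 to 0.218 over the 14 alternatives, and the direction was the same in all of them.

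CYP26A1 (ENSG00000095596, chr10:93073475-93077885), the cytochrome that oxidizes retinoic acid and one of its most strongly induced targets, was barely detected. It had 15 and 11 reads in vector cells and 14 and 5 in JMJD3 cells, at 0.553, 0.284, 0.370 and 0.0771 FPKM. The groups overlapped, and JMJD3 replicate 2 alone was low. The log2 fold change of -0.68 had a standard error of 0.60 and did not pass (adjusted p = 0.388 by edgeR). It ran from -1.73 without JMJD3 replicate 1 to -0.01 without JMJD3 replicate 2, so that its size hung on which JMJD3 library was kept.

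TGM2 (ENSG00000198959, chr20:38127385-38168475), tissue transglutaminase and a marker of retinoic acid treatment in APL cells, had 6 and 6 reads in vector cells and 2 and 3 in JMJD3 cells. At 0.0469, 0.0349, 0.0186 and 0.0304 FPKM it was the lowest of the 10 genes, and it was not tested. Its sums of 12 and 5 reads gave a ratio scaled to the read totals of 0.394. The exact 95% counting interval of 0.109 to 1.20 includes equal levels. The log2 ratio of its group means was -0.74 in FPKM and -1.53 in CPM on TMM-scaled sizes.

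**Figure D2:**
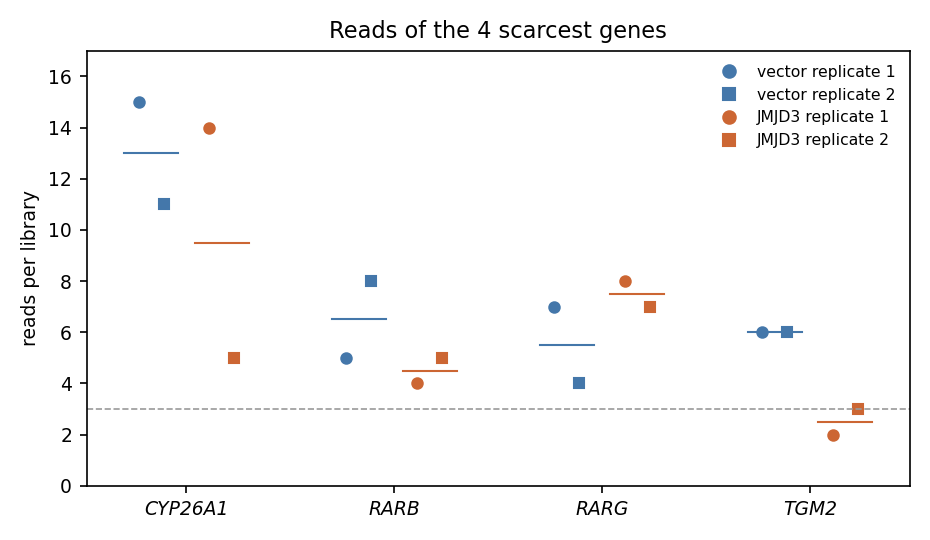
Reads per library (linear axis) of CYP26A1, RARB, RARG and TGM2; points are libraries, short lines are group means and the dashed line marks 3 reads. All values lie between 2 and 15 reads, and in reads not scaled to depth only TGM2 is apart between vector (blue) and JMJD3 (orange) libraries.

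ASB2 (ENSG00000100628, chr14:93934166-93976570), a subunit of a ubiquitin ligase that is induced when APL cells differentiate, was expressed at a moderate level. It had 158 and 233 reads in vector cells and 240 and 269 in JMJD3 cells, at 3.77, 4.38, 3.95 and 3.59 FPKM. The groups overlapped on both scales. The log2 fold change on reads was 0.14 (standard error 0.16, adjusted p = 0.518 by edgeR), and its sign turned with limma on log2(FPKM + 1) (-0.09), on log2(FPKM + 0.1) (-0.11) and without vector replicate 1 (-0.08). For ASB2 the deposited count per unit of FPKM, which follows the length the authors' program assigned to the mix of isoforms, was 47.8 and 55.6 in vector cells and 60.3 and 62.1 in JMJD3 cells. The same quotient for ACTB was between 60.4 and 61.1 in all 4 libraries. For PML it was 103 and 102 in vector cells and 112 and 107 in JMJD3 cells. The log2 ratio of the group means of PML was -0.50 in FPKM and -0.37 in CPM. For TGM2 the quotient was 146 and 180 in vector cells and 107 and 81.8 in JMJD3 cells, from at most 6 reads in a library. For RXRA the quotient overlapped between groups, at 131, 145, 136 and 133. Isoform shares themselves are not in the table used.

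Of the 10 genes 7 passed the filter, and 4 of these 7 passed the test, 3 lower (PML, RARA and DHRS3) and 1 higher (RXRA), against 40.8% of all tested genes. A share of so few genes describes these genes only. Limma on FPKM left 1 lower (PML) and 1 higher (RXRA) with either pseudocount. Over all 15243 tested genes it left 4307 passing with 1 added and 4326 with 0.1 added. The 4 calls were each lost with either JMJD3 library left out, as given above. In 5 of the 7 the groups did not overlap in CPM, beside 74.3% of all tested genes. None of the 7 passed with a change of at least 2-fold, as 10.5% of all tested genes did, and their log2 fold changes ran from -0.68 to 0.35. The median over the 7 was -0.37, beside 0.04 over all tested genes.

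**Figure D3:**
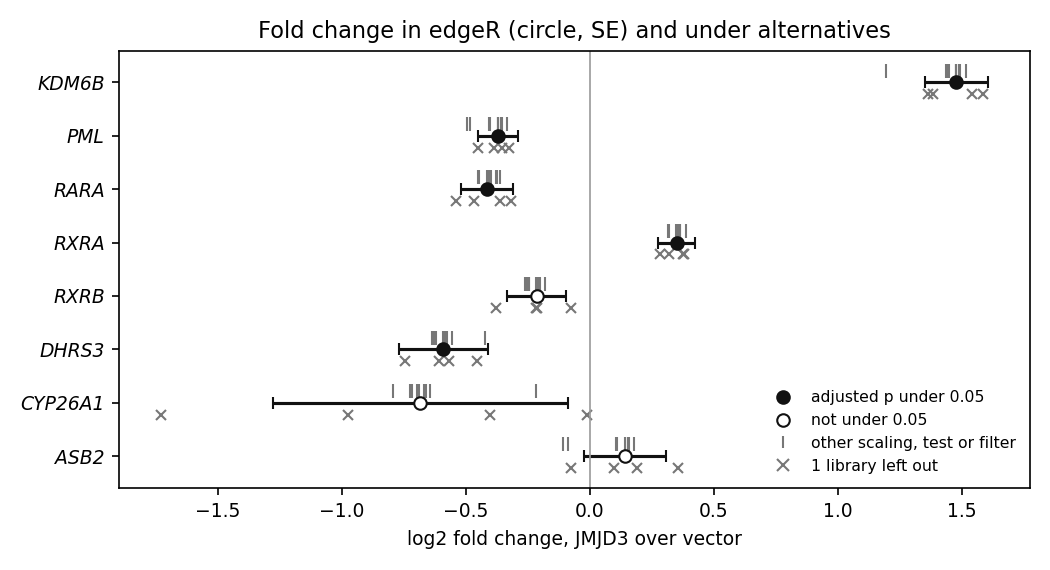
Log2 fold change, JMJD3 over vector, of KDM6B and the 7 tested genes by edgeR (circles with standard errors; filled where the adjusted p is under 0.05), with other scalings, tests and filters (ticks) and fits with 1 library left out (crosses). KDM6B at 1.48 and RXRA at 0.35 lie above 0 and PML, RARA and DHRS3 below it under each alternative, while ASB2 lies on both sides.

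In order of level, PML and RXRA led in vector cells with means of 46.7 and 44.9 FPKM, and their libraries overlapped. In JMJD3 cells RXRA came first at 57.8 FPKM and PML second at 33.0 FPKM, without overlap. RARA, RXRB, ASB2, DHRS3 and CYP26A1 followed in this order in both groups, each apart from the next. At the low end RARG, RARB and TGM2 had means from 0.158 down to 0.0409 FPKM in vector cells and from 0.134 down to 0.0245 FPKM in JMJD3 cells, where their few reads give the order little weight. In vector cells RARG overlapped RARB, and in JMJD3 cells CYP26A1 overlapped RARG.

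**Figure D4:**
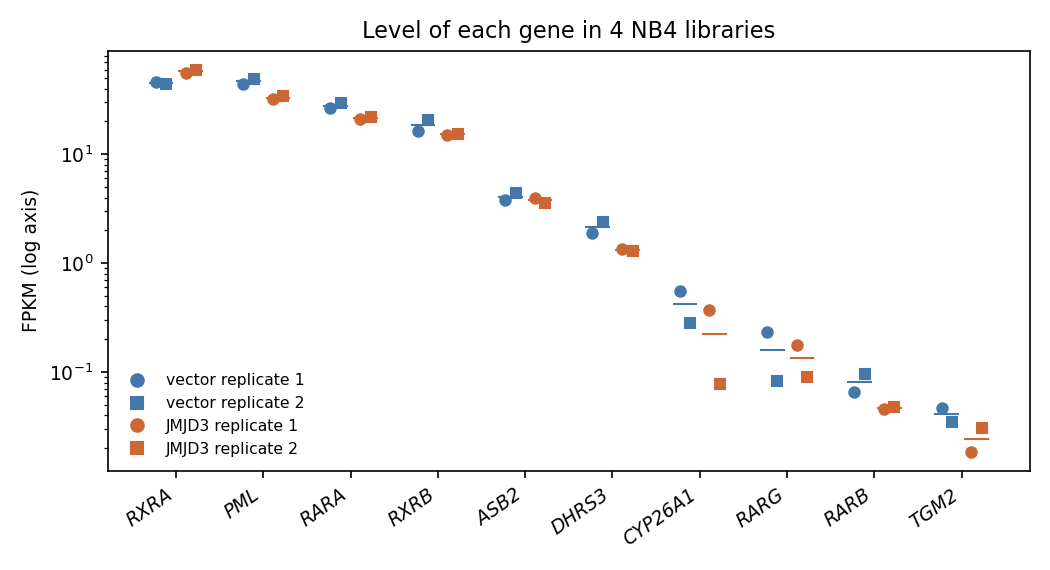
FPKM (log axis) of the 10 genes in vector (blue) and JMJD3 (orange) libraries, circles for replicate 1 and squares for replicate 2, with lines at the group means, in order of mean level. RXRA is higher and PML, RARA and DHRS3 lower in both JMJD3 libraries, and the levels span from 59.6 FPKM down to 0.0186 FPKM.

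By its label vector replicate 1 was run on lane 20, and lane 17 held the remaining libraries, so that lane 17 alone compares 1 vector library with 2 JMJD3 libraries. Within lane 17 the log2 fold changes were -0.45 for PML, -0.54 for RARA, 0.28 for RXRA and -0.75 for DHRS3, all on the same side of 0 as over 4 libraries. In the same fit RXRB was at -0.38, ASB2 turned to -0.08 and CYP26A1 was at -0.40. The directions of PML, RARA, RXRA and DHRS3 held in all fits with 1 library left out.

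Among the 3 genes with the pattern most like that of PML over the 4 libraries, by the root mean square difference of log2(FPKM + 0.1), were CLPTM1 (0.0328) and SURF6 (0.0504). Among the 3 most like RARA were PPP1R16A (0.0263) and MAP2K7 (0.0338). With 4 libraries such likeness joins genes of equal level and equal group difference.

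Retinoids reach the receptors through transport and metabolism, and of 28 genes listed for these, RXRG among them, 15 were tested. Of the 15, 2 were higher and 4 lower, beside 21.7% higher and 19.1% lower over all tested genes, and the median log2 fold change was 0.01 beside 0.04. Fewer of the 15 passed without JMJD3 replicate 1 or 2, as was so over all tested genes. The DESeq2 Wald test gave 1 higher and 2 lower, beside 2453 and 2785 of the 15013 genes it tested. Limma on FPKM gave 1 higher with either pseudocount, beside 2046 (1 added) and 2035 (0.1 added) of 15243. The replicate block gave 2 lower, beside 2422 of 15243. DHRS9, a retinol dehydrogenase, had the largest rise, to 264% of the vector level (adjusted p = 0.00147 by edgeR), followed by BCO2 with a log2 fold change of 0.95, a call lost on FPKM, with the DESeq2 Wald test and without vector replicate 2 or JMJD3 replicate 2. FABP5, a carrier of fatty acids and retinoic acid, fell by 1.09 on the log2 scale (adjusted p = 0.00203 by edgeR), although near-identical copies of it could share its reads, and the lipoprotein receptor SCARB1, the most abundant of the list at 223 FPKM on average, fell by 0.47. PNPLA4 was at -0.42, a call lost with the DESeq2 Wald test and with the replicate block. The calls of SCARB1 and PNPLA4 were also lost with either JMJD3 library left out. In 6 of the 28 there were 0 reads in all libraries, and 13 were not tested.

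Of 20 corepressors and coactivators of nuclear receptors 19 were tested, 2 were higher and 2 lower, so that 21.1% passed beside 40.8% of all tested genes, and the median was -0.05 beside 0.04. These counts moved with single libraries, as those of all genes did: 7 were higher and 6 lower without vector replicate 1, beside 4605 higher and 4464 lower of all 15243 tested genes, and 8 were lower without vector replicate 2, beside 3692. Without JMJD3 replicate 1, 1 was higher and 0 lower, and without JMJD3 replicate 2 both counts were 0. The counts also moved with DESeq2 size factors (4 lower), upper quartile scaling and the replicate block (1 lower each). They also moved with no filter (4 higher), the crossed block (4 higher and 6 lower) and limma on FPKM (1 higher with either pseudocount). Over all tested genes, DESeq2 size factors gave 3194 lower, upper quartile scaling 2515 and the replicate block 2422. No filter gave 4100 higher of 27096, and the crossed block 4170 higher and 3644 lower. Limma gave 2046 and 2035 higher with 1 and 0.1 added. GPS2, a subunit of the NCOR complex, and HDAC1 fell by 0.41 and 0.25 on the log2 scale, and the coactivators NCOA3 and NCOA4 rose by 0.67 and 0.31. GPS2, HDAC1 and NCOA3 did not pass on FPKM values. HDAC1 also failed to pass with upper quartile scaling, no filter and the replicate block, and NCOA4 with the replicate block. GPS2, HDAC1 and NCOA4 lost their calls with either JMJD3 library left out, and NCOA3 without JMJD3 replicate 2. The most abundant, HDAC2, was at 0.01, and NRIP1 had 0 reads in all libraries.

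Besides RARs, RXRα pairs with receptors for vitamin D, fatty acids and oxysterols. Of 26 genes for such partners and other nuclear receptors 21 were tested, 6 were higher and 5 lower, so that 52.4% passed beside 40.8% of all tested genes, and the median was 0.02 beside 0.04. Fewer of the 21 passed without JMJD3 replicate 1 or 2, and more were lower without vector replicate 2. The same held over all tested genes. With limma on log2(FPKM + 1) 3 were higher and 3 lower, beside 2046 and 2261 of all 15243 tested genes. On log2(FPKM + 0.1) 3 were lower, beside 2291 of all tested genes. PPARG fell by 2.40 on the log2 scale (adjusted p = 0.00214 by edgeR), from 51 and 57 reads in vector cells to 12 and 12 in JMJD3 cells, and NR2F1 and NR1I2 fell by 1.86 and 1.81. RORA, PPARA and PPARD rose by 0.98, 0.79 and 0.71, and RORA, PPARA and NR1I2 did not pass on FPKM values. PPARA was even lower on that scale, with means of 2.88 FPKM in vector and 2.07 FPKM in JMJD3 cells. RORA and NR1I2 also failed to pass with the DESeq2 Wald test. The call of RORA was lost with any single library left out, and those of NR1I2, PPARA and PPARD without JMJD3 replicate 2. ESRRA was the most abundant at 46.4 FPKM on average and was at -0.38.

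Among 27 genes of the PML nuclear body and the SUMO pathway, which modifies PML, all 27 were tested, 5 were higher and 9 lower, beside 21.7% higher and 19.1% lower over all tested genes, and the median was -0.01 beside 0.04. With limma on FPKM 0 were higher under either pseudocount, and on log2(FPKM + 1) 5 were lower. Over all 15243 tested genes limma gave 2046 higher and 2261 lower on log2(FPKM + 1). On log2(FPKM + 0.1) it gave 2035 higher and 2291 lower. Fewer of the 27 passed without JMJD3 replicate 1 or 2, and more were higher without vector replicate 1. The same held over all tested genes. SUMO3 and SENP3, a SUMO protease, fell by 0.78 and 0.52 on the log2 scale (adjusted p = 0.00148 and 0.00657 by edgeR). SENP7, HIPK2 and SP110 rose by 0.95, 0.87 and 0.63. SAE1, part of the activating enzyme, was the most abundant at 480 FPKM on average and was at -0.27.

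Genes known to rise with all-trans retinoic acid in APL cells gave 25 tested of 30, with 11 higher, 2 lower and a median of 0.28 beside 0.04 over all tested genes. The 11 of 25 that were higher stood beside 21.7% of all tested genes, and the 2 of 25 that were lower beside 19.1%. Fewer of the 25 were higher without JMJD3 replicate 1 or 2, as was so over all tested genes. The list was compiled with earlier results of these data known. RARRES3, a tumor suppressor induced by retinoids, rose by 2.20 from 10 and 6 reads to 40 and 49, the integrin gene ITGAX rose by 1.72 and TNFSF10, which encodes TRAIL, by 1.45 (adjusted p = 0.00534 for RARRES3 and 0.000458 for ITGAX by edgeR). ID2, an inhibitor of helix-loop-helix factors, fell by 1.99 (adjusted p = 0.000386 by edgeR) and PRKCD by 0.51. SPI1, the most abundant at 202 FPKM on average, was at -0.28 without passing. The responders DHRS3, CYP26A1, TGM2 and ASB2, which are not in this list, split into 1 lower (DHRS3), 2 without a call (CYP26A1 and ASB2) and 1 too low to test (TGM2).
Among the genes named from the 5 lists for a rise or fall, FABP5, DHRS9, PPARG, NR2F1, SUMO3, ITGAX, RARRES3, TNFSF10 and ID2 passed at an adjusted p under 0.05 under each scaling, test, filter, block and left-out library that tested them, with no limit on the fold, and each of the others missed it in between 1 and 7 of these.

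**Figure D5:**
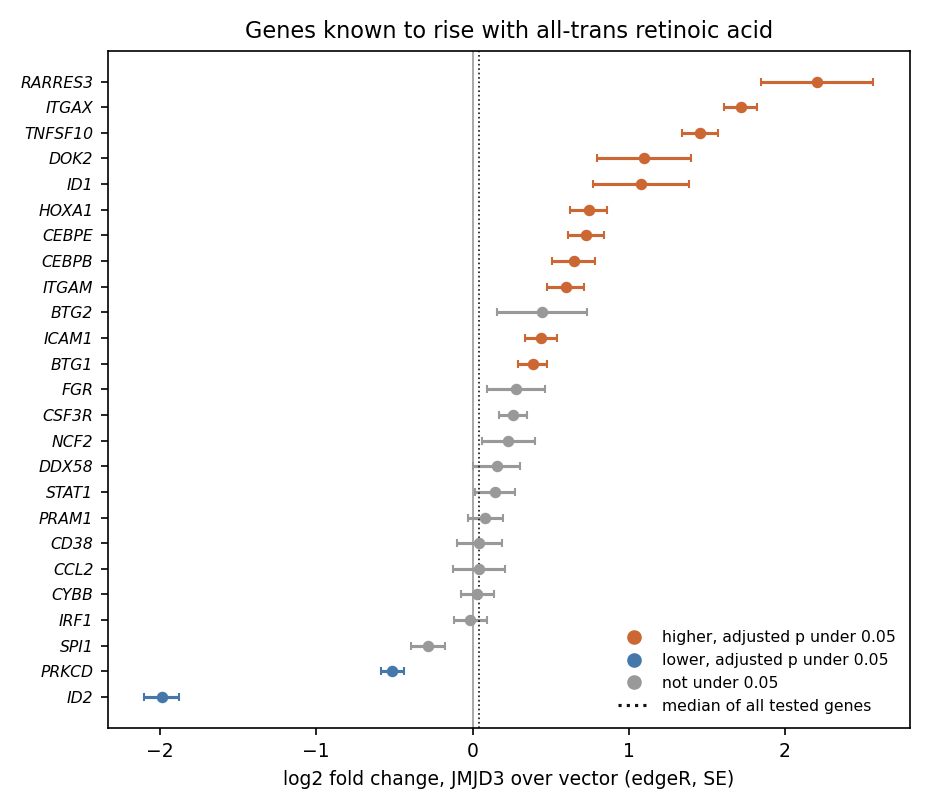
Log2 fold change, JMJD3 over vector, with standard errors by edgeR for the 25 tested genes known to rise with all-trans retinoic acid (orange higher, blue lower, grey not past the threshold); the dotted line is the median of all tested genes at 0.04. RARRES3 at 2.20 and ID2 at -1.99 are the ends of the range.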

How the data were processed

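RNA of 4 NB4 libraries was compared, 2 with control vector and 2 with JMJD3. Per library, the authors deposited an estimated count of each gene, made by them before deposit with RSEM per their notes, and its FPKM. The submitters' notes name CASAVA 1.8, TopHat2 2.0.4, RSEM, edgeR and GRCh38, while the study's methods and design text name other aligners and counters. The deposited counts proved to be estimated reads times 1 factor per library: the value of 1 read was 1.14, 1.05, 0.993 and 0.829 in vector replicates 1 and 2 and JMJD3 replicates 1 and 2, and 91.4% of nonzero values were whole multiples of it within 0.02 reads. Each column was divided by its factor and rounded, after this was seen in the values. The authors' own fold changes, p-values and FDR in the table were not used.

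Reads were filtered with filterByExpr (15243 of 60662 genes kept), given TMM factors and fitted in edgeR 4.0.16 under R 4.3.3 by its quasi-likelihood test over all 4 libraries without covariate, with Benjamini-Hochberg adjustment over all tested genes. The standard error is the fold change divided by the square root of F. A gene passed at an adjusted p under 0.05. Levels between genes were compared in FPKM, which is per length. Counting intervals are exact (Clopper-Pearson). Alternatives were DESeq2 1.42.0 size factors and Wald test, upper quartile scaling, limma 3.58.1 with 1 or 0.1 added to FPKM before log2, no filter, 10 reads in every library, a replicate block, each library left out, and a 2-fold limit. Later additions, made with the values in view, were the deposited counts without division and a crossed replicate block. The edgeR, DESeq2 and limma steps were tested on simulated data.

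Named are the 10 genes, KDM6B, in each list up to 3 genes with the largest rise and 3 with the largest fall among those passing, the most abundant gene, and for PML and RARA the 3 nearest genes in pattern, not all of which are printed. The 10 genes and the lists were chosen with earlier results of these data known, and the lists were compiled for this work. Positions and promoters are from RefSeq on GRCh38.p14, matched by symbol, since the table used gives none. Replicates differed by more than sampling noise (chi-square per gene 24.3 between vector and 5.63 between JMJD3 libraries).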

Additional observations from a re-analysis of the deposited data

How the results depend on the processing

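The directions of PML, RARA, RXRA and DHRS3 held under all 14 alternatives. With limma on log2(FPKM + 1) and log2(FPKM + 0.1) RARA was at -0.36 and -0.38 and no longer passed. DHRS3 was at -0.42 and -0.64 and no longer passed, and ASB2 turned to -0.0891 and -0.11. In the 5 lists 29 and 31 of 107 tested genes passed in place of 48. Over all 15243 tested genes 4307 and 4326 passed in place of 6219. DHRS3 also failed to pass with upper quartile scaling (-0.56), the DESeq2 Wald test (-0.62) or the replicate block (-0.59). Leaving out 1 library gave log2 fold changes of -0.45 to -0.33 for PML, -0.54 to -0.32 for RARA, 0.28 to 0.38 for RXRA, -0.38 to -0.0780 for RXRB, -0.75 to -0.46 for DHRS3 and -0.0778 to 0.35 for ASB2. It gave 2444 to 9069 passing genes in place of 6219, and 15 to 67 in the lists. The cause of these differences was not tested. A 2-fold limit left 1595 genes, and 11 in the lists. In CPM in place of FPKM the log2 ratio of group means was -0.37 for PML, -1.53 for TGM2, 0.15 for ASB2 and 0.19 for RARG (in FPKM -0.50, -0.74, -0.11 and -0.24).

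CYP26A1 ran from -1.73 to -0.01 without passing, and could not be fitted under the minimum of 10 reads in every library. The replicate block gave 5701 passing genes and among the 10 changed only the call of DHRS3. With the replicate numbers crossed in the block, 7814 genes passed. With the deposited counts not divided by their factor 6198 passed. Of 180 counts per list and direction under the alternatives 120 stayed within 1.5 times.

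Depth limits RARB, RARG, TGM2 and CYP26A1, with 2 to 15 reads in a library, where only large differences could be seen, and the 2 libraries per group limit all tests.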
